A study of Mus musculus with 14 samples.

Results

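The 40 genes described here drive or mark cell division. They were listed by name from their textbook roles, with 22 genes of G2 phase and mitosis and 18 genes of DNA replication and the entry into S phase. They stand among 32589 genes in the tables of the purchased tissue and 19465 in those of the C1qa cross. All 40 were measured in the purchased sections. In the cross sections 37 were analysed (20 mitosis and 17 S-phase members), and Ccnb1, Cdc20 and Rrm2 were not analysed here.

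A dividing cell copies its DNA in S phase and separates the copies in mitosis. At the end of G1, cyclin E with its kinase releases E2F1, a transcription factor that turns on the replication genes. Cdc6 loads the Mcm2 to Mcm7 helicase onto replication origins, Gins2 and Cdc45 complete the helicase, Pcna is the sliding clamp of the polymerases, and Rrm1, Rrm2, Tyms and Tk1 supply nucleotides. Later in the cycle cyclins A2, B1 and B2 act with Cdk1, the kinase that starts mitosis, while Aurka, Aurkb, Plk1, Bub1 and the kinesins build and watch the spindle, and Cdc20 and Ube2c direct the destruction of cyclins at its end. Fetal liver at mid-gestation is the main site of red cell production and is rich in dividing erythroblasts, whereas in the adult spleen most lymphocytes rest and division goes on in germinal centres and in the red pulp.

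The data were Visium spatial counts from formalin-fixed, paraffin-embedded mouse tissue, in which each spot reads the RNA of several cells, so that fewer dividing cells and less RNA per dividing cell cannot be told apart. There were 14 sections, each 1 library. The 6 purchased sections came from wild-type C57BL/6 mice and had 1 section per group: E13.5 fetal liver, E14.5 fetal liver, leg bone marrow at postnatal day 8 (P8), leg bone marrow at 89 weeks, leg bone marrow of a 6-month-old mouse whose bone was kept in 0.5 M EDTA for 5 days, and adult spleen. The other 8 came from crosses of C1qa heterozygous mice, with 2 sections for each group: wild-type and C1qa knockout fetal liver at E14.5, labelled 2 and 4 in both genotypes, and wild-type and C1qa knockout spleen at 3 months, labelled 1 and 2 in both. The knockout is constitutive and removes a subunit of complement C1q, which macrophages make. Only C1qa itself checks those labels: it was read at 95.9 and 25.8 CPM (UMI counts scaled to a common library total) in the wild-type fetal livers and at 218 and 269 CPM in the wild-type spleens, against 1 or 2 UMIs in all in each knockout section.

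Levels were taken over tissue-covered spots in which 1000 genes or more were seen, of which a section had between 15 and 2320. Their totals ran from 37167 UMIs in the EDTA bone marrow, where 3 UMIs already stand for 80.7 CPM, to 56182915 in the E14.5 fetal liver. The cross fetal livers differed by their label number in what they held: genes of hepatocytes took 9.76% and 4.81% of the UMIs in the 2 sections labelled 2 and 0.662% and 1.05% in those labelled 4, where liver spots, those with hepatocyte genes at 0.5% of UMIs or more, made up 29.8% of wild-type and 62.1% of knockout spots. In P8 bone marrow 25.3% of the spots held marrow by their neutrophil genes. Pancreas genes took 0.00526% and 0.0621% of UMIs in wild-type spleens 1 and 2, against 0.241% and 1.84% in knockout spleens 1 and 2.

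Summed over the 22 mitosis members, the purchased tissue had 4115 and 4750 CPM in E13.5 and E14.5 fetal liver, 2335 and 3069 CPM in P8 and 89-week marrow and 823 CPM in the spleen, and the 18 S-phase members summed to 3941, 4246, 2048, 2261 and 1043 CPM. In the EDTA marrow, with 15 spots, they summed to 4735 and 1964 CPM. Fetal liver was thus above P8 and 89-week marrow, and spleen lowest, in both phases, while the mitosis sum of the EDTA marrow was as high as that of fetal liver. Mki67, which coats mitotic chromosomes and is the usual marker of cycling cells, was read at 1096 CPM in E13.5 and 1506 CPM in E14.5 purchased fetal liver, at 558 and 773 CPM in P8 and 89-week marrow and at 194 CPM in the spleen. In the cross it stood at 1168, 839, 1433 and 1189 CPM in the fetal livers (wild type 2 and 4, then knockout 2 and 4) and at 372, 259, 127 and 145.3 CPM in the spleens (wild type 1 and 2, then knockout 1 and 2). Every fetal liver lay above every spleen, and both knockout spleens lay below both wild-type spleens. The EDTA bone marrow had 1614 CPM of Mki67, from 15 spots.

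Top2a, the topoisomerase that untangles sister chromatids, had 244 and 283 CPM in the purchased fetal livers, 149, 121 and 108 CPM in the P8, 89-week and EDTA marrows and 67.6 CPM in the adult spleen. Its cross fetal livers had 171, 330, 217 and 333 CPM and its cross spleens 31.2, 19.4, 28.7 and 42.0 CPM, in the same order of sections as above. The tissues did not overlap, and the fetal livers fell by label number, with both sections labelled 4 above both labelled 2. Ccnb1, a cyclin of mitotic entry measured in the purchased tissue alone, had 66.9, 80.8, 24.3, 43.3 and 12.0 CPM in the E13.5 and E14.5 livers, the P8 and 89-week marrows and the adult spleen, and no UMI in the EDTA marrow.

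The S-phase members followed the same order of tissues. Mcm2 had 423 and 390 CPM in the purchased livers, 190, 219 and 269 CPM in the 3 marrows and 122 CPM in the adult spleen, with 250, 401, 336 and 466 CPM in the cross livers and 101, 128, 63.3 and 59.5 CPM in the cross spleens. Mcm5 had 369, 358, 169, 275, 161 and 109 CPM over the purchased sections in that order, 243, 421, 366 and 479 CPM in the cross livers and 85.3, 89.0, 92.4 and 94.4 CPM in the cross spleens. Thus Mcm2 was lower in both knockout spleens than in both wild-type spleens while its helicase partner Mcm5 was not.

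Rrm2, the small subunit of ribonucleotide reductase, had 625 and 704 CPM in the purchased livers, 360, 400 and 484 CPM in the marrows and 103 CPM in the adult spleen. E2f1 had 60.0 and 93.8 CPM in the purchased livers, 38.3 and 35.0 CPM in P8 and 89-week marrow, no UMI in the EDTA marrow and 23.0 CPM in the adult spleen. Its cross livers had 71.6, 60.8, 84.3 and 65.2 CPM and its cross spleens 16.4, 19.9, 11.6 and 14.4 CPM. Pcna was nearly unread by these probes: it had 6 to 34 UMIs in the 5 deeper purchased sections and 24 to 159 UMIs in the cross sections, and alone among the members it was higher in the cross spleens (3.34 to 10.2 CPM) than in the cross livers (1.19 to 2.68 CPM).

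**Figure D1:**
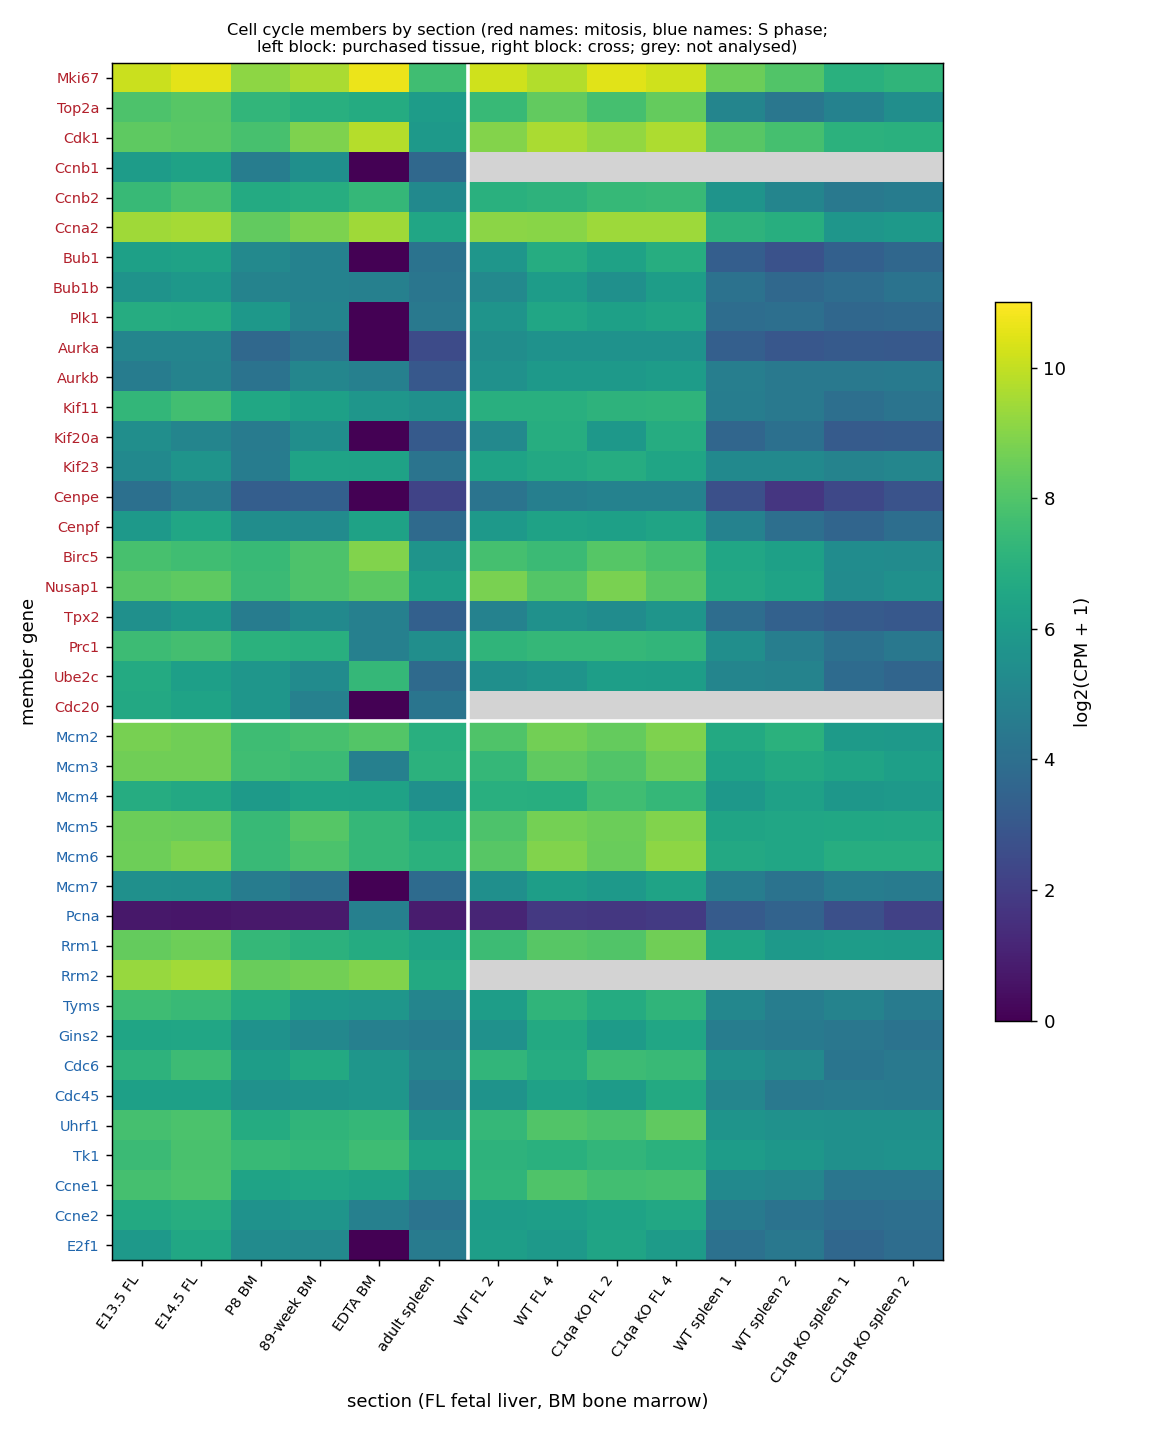
Heat map of log2(CPM + 1) for the 40 members (rows, mitosis above the white line, S phase below it) in the 14 sections (columns, purchased to the left, cross to the right). Fetal liver columns are brightest and spleen columns darkest, Pcna is dark in all but the EDTA bone marrow, where it had 1 UMI, and 9 members are at 0 in the EDTA bone marrow, which had 15 spots.

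The 2 phases are known to be switched on through different promoter elements, E2F sites in replication genes and the cell cycle genes homology region (CHR) with CCAAT boxes in mitotic genes. RefSeq promoters of build GRCm38.p6, from 250 bases before to 50 after the start, were at hand for 33 members (18 mitosis, 15 S phase) and for 27025 genes in all, and each motif was searched on both strands. The E2F words TTTCGCGC and TTTGGCGC were held by 4 and 3 of 15 S-phase members and by 1 and 0 of 18 mitosis members, against 0.374% and 0.585% of all promoters. The CHR word TTTGAA was held by 13 of 18 mitosis members, from Mki67, Top2a and Plk1 to Cenpf and Kif11, and by 2 of 15 S-phase members (Mcm2 and Cdc45), against 20.2% of all promoters. The other CHR word, TTTAAA, did not separate the phases, with 6 of 18 and 5 of 15 against 14.9%. CCAAT was held by 16 of 18 mitosis and 10 of 15 S-phase members against 41.1%, and a CHR word together with CCAAT by 15 of 18 and 5 of 15 against 12.2%. A match is a description of the letters and not a bound site. No match was sought for Gins2, Mcm4, Kif20a, Ccne2, Ccna2, Tpx2 and Aurkb.

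A choice of promoters, made after their matches were seen, shows a pair of helicase genes with E2F words. Beside them stands a pair of mitotic genes with CHR words and CCAAT boxes. The contrast is not clean, since Cdk1 holds the E2F word TTTCGCGC as well and Mcm5 and Mcm6 also hold CCAAT boxes. Mcm5 holds the CHR word TTTAAA too, outside the bases printed. Each is the 200 bases before the start, 5′ to 3′ on the gene's strand, with every match to a searched word in capitals on either strand. In Mcm5 and Mcm6 the words TTTCGCGC and TTTGGCGC overlap on opposite strands, and in Ube2c so do a pair of CCAAT boxes. Mcm5 lies at chr8:75109309-75109508 (plus strand), Mcm6 at chr1:128359706-128359905 (minus strand), Cdk1 at chr10:69352913-69353112 (minus strand) and Ube2c at chr2:164769729-164769928 (plus strand).
Mcm5: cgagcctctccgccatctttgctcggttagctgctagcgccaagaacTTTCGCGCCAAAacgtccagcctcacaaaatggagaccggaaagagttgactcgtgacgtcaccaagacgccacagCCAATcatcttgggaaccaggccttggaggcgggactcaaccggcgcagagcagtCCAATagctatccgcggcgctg
Mcm6: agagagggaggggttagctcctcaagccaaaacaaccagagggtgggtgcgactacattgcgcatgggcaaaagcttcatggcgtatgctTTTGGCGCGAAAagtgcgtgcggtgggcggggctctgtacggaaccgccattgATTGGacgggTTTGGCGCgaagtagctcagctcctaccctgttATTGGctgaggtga
Cdk1: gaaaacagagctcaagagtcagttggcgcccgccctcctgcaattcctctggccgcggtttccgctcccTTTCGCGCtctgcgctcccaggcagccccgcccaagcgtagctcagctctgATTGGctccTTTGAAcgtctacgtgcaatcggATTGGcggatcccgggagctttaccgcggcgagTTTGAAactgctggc
Ube2c: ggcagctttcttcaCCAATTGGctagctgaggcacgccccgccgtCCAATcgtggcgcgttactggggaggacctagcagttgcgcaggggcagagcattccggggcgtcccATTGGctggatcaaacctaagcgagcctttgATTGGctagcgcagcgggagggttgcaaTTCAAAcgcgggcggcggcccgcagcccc

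The first comparison within the cross asked how fetal liver at E14.5 differed from spleen at 3 months, with organ and age changing together. All 20 mitosis members and 16 of 17 S-phase members were higher in fetal liver by edgeR's quasi-likelihood test with Benjamini-Hochberg adjustment over all genes, where 26.6% of all genes were called higher and 53.3% were called in either direction. The median log2 fold change was 3.18 for mitosis and 2.67 for S phase, against -0.10 over all genes. None of the 37 overlapped between the 4 livers and the 4 spleens, where 36.8% of all genes with at least 10 UMIs did not, with Pcna in the opposite direction at -0.84 ± 0.31 (SE), which did not pass the test.

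The members with the smallest adjusted p had wide gaps. Bub1, a spindle checkpoint kinase, had 53.5 to 115 CPM in the livers and 5.92 to 11.9 CPM in the spleens, a rise on the log2 scale of 3.98 ± 0.25 (SE, adjusted p = 8.3e-05, edgeR). Top2a rose by 3.79 ± 0.29 (adjusted p = 0.000133), and Kif20a, a kinesin of cytokinesis, by 3.52 ± 0.26 (adjusted p = 0.000123). Plk1, a kinase of spindle assembly, and Tpx2, which activates Aurora A, rose by 3.20 ± 0.25 and 2.83 ± 0.24. Mki67, whose livers ranged from 839 to 1433 CPM, had a difference of 3.30 ± 0.47, with a larger error than Bub1.

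Of the S-phase members, Ccne1, the cyclin of S-phase entry, rose most, from 18.8 to 36.8 CPM in the spleens to 144.6 to 247 CPM in the livers, by 3.72 ± 0.27 (SE, adjusted p = 0.000113, edgeR). Uhrf1, which copies DNA methylation behind the fork, rose by 3.03 ± 0.22 (adjusted p = 0.000116), Gins2 by 2.53 ± 0.20 and Tyms, thymidylate synthase, by 2.76 ± 0.23. Mcm6 rose by 2.67 ± 0.23. The 6 Mcm genes lay close together, between 2.06 (Mcm4) and 2.80 (Mcm2).

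The rest of the pathway moved with the members. Of the other replication genes 23 of 24 were higher in fetal liver (median 2.34), and of the other mitosis genes 23 of 24 (median 2.65). Of the G1 cyclins and kinases 5 of 6 were higher, and of the E2F, RB and MuvB regulators 10 of 12 were higher and 1 lower. Cell cycle inhibitors did not go one way: 2 of 8 were higher, among them Cdkn1c at 5.80, and 3 were lower, among them Btg1, an antiproliferative gene of resting lymphocytes, at -2.53. Cell type lists moved too, with all 8 early erythroid genes higher (median 4.16) and all 7 B cell genes lower (median -6.98), and the part of cell makeup in the members' difference was not tested. The count of members was 36 to 37 without any one section, with wild-type or knockout sections alone, and under every other setting, in which the share of called genes that were higher moved from 49.9% to 34.5% with upper-quartile factors.

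The purchased sections, with 1 section per group and hence no test, gave the members at several stages. E13.5 and E14.5 fetal liver did not differ by 2-fold in any of the 40 members, where 7.31% of genes passed 2-fold. The median log2 ratio, E13.5 over E14.5, was -0.19 for mitosis and -0.09 for S phase, against 0.08 over all genes. Cenpe and Cenpf, kinetochore proteins, were lower at E13.5 at -0.66 (95% counting interval -0.80 to -0.52) and -0.61 (-0.68 to -0.53), and Ube2c was higher at 0.53 (0.47 to 0.60). E2f1, Cdc6 and Tk1 had ratios of -0.65, -0.41 and -0.36. These intervals, like the others for single sections, cover counting error and not the spread between animals.

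E14.5 fetal liver had more of the members than P8 bone marrow. Of 40 members 20 passed 2-fold, all higher in liver, where 11.5% of genes were higher by that much and 46.8% passed in either direction. Ccnb1 went from 24.3 to 80.8 CPM, Cenpe from 8.69 to 24.8 CPM and Mki67 from 558 to 1506 CPM (log2 ratios 1.74, 1.51 and 1.43). Ccne1, Cdc6 and Mcm6 had ratios of 1.53, 1.41 and 1.37. The count was 34 after TMM scaling, which moved the median of all genes from -0.35 to 0.05 and the share of passing genes that were higher from 24.6% to 40.7%, and it was 1 when P8 was limited to its 274 marrow spots, the section as a whole being rich in chondrocyte, osteoblast and muscle genes.

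P8 and 89-week bone marrow differed by 2-fold in few members. In the paper, the femur of an old mouse was cryosectioned and its marrow freed of bone before paraffin embedding. That step is not described for P8 bone, so stage and preparation cannot be told apart in this pair. Only 2 of 40 passed 2-fold, both lower at P8, where 46.7% of all genes passed and 15.2% were lower. They were Kif23, a kinesin of the midbody, at 23.5 and 83.0 CPM (log2 ratio -1.82, interval -1.99 to -1.66) and Cdk1 at 221 and 463 CPM (-1.07). Cdc20 and Tyms pointed the other way at 0.98 and 0.87, Mcm5 and Cdc6 were at -0.70 and -0.54, and the medians were -0.29 for mitosis and -0.11 for S phase against 0.32 over all genes. Within marrow spots the order of the sums turned. There 6 members passed, 5 of them higher at P8 and 1 lower, and the 20 mitosis and 17 S-phase members measured everywhere summed to 3463 and 2540 CPM at P8 and to 2998 and 1861 CPM at 89 weeks.

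Adult spleen had less of 39 of the 40 members than E14.5 fetal liver by 2-fold or more, where 12.8% of genes were lower by that much and 59.0% passed in either direction. The median ratio was -2.26 for mitosis and -1.84 for S phase against 0.86 over all genes, and -0.16 over all genes after TMM scaling, which moved the share of passing genes that were higher from 78.3% to 48.5%. Ccna2, the cyclin of S phase and G2, went from 734 to 89.8 CPM (-3.03), Mki67 from 1506 to 194 CPM (-2.95) and Cenpf from 89.7 to 12.9 CPM (-2.79). Rrm2, Ccne1 and Ccne2 had ratios of -2.77, -2.73 and -2.70. Pcna, with 12 and 34 UMIs, was the exception. All 8 early erythroid genes were lower as well (median -3.84), as were all 10 hepatocyte genes, and all 7 B cell genes were higher, and their part in the members' difference was not tested.

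The balance of the phases was taken as the mean log2(CPM + 1) of the 17 S-phase members minus that of the 20 mitosis members measured everywhere. In the cross fetal livers it was -0.12, 0.02, -0.04 and 0.10 (mean -0.01 ± 0.09, SD, n = 4), and in the cross spleens 0.30, 0.56, 0.69 and 0.50 (mean 0.51 ± 0.16, SD, n = 4). On this scale the spleens leaned towards S phase by 0.52 more than the livers, with no overlap. Pcna, nearly unread by these probes and alone higher in the cross spleens, is among the 17 and adds to this gap. The balance without Pcna was not taken, so the gap of 0.52 and the lack of overlap are given only with Pcna included. In the purchased tissue the adult spleen was again highest at 0.59, with 0.23 and 0.18 at E13.5 and E14.5, 0.14 at P8, 0.20 in the EDTA marrow and -0.09 at 89 weeks. Signs and the gap between tissues depended on the scale. The log2 ratio of summed CPM, in which abundant genes such as Mki67 weigh most, was -0.85, -0.33, -0.67 and -0.31 in the cross livers and -0.61, -0.26, 0.26 and 0.10 in the cross spleens, which overlapped, with a difference of means of 0.41. In the purchased tissue it was -0.25 and -0.37 in the livers, -0.42, -0.69 and -1.68 in P8, 89-week and EDTA marrow and 0.25 in the adult spleen.

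**Figure D2:**
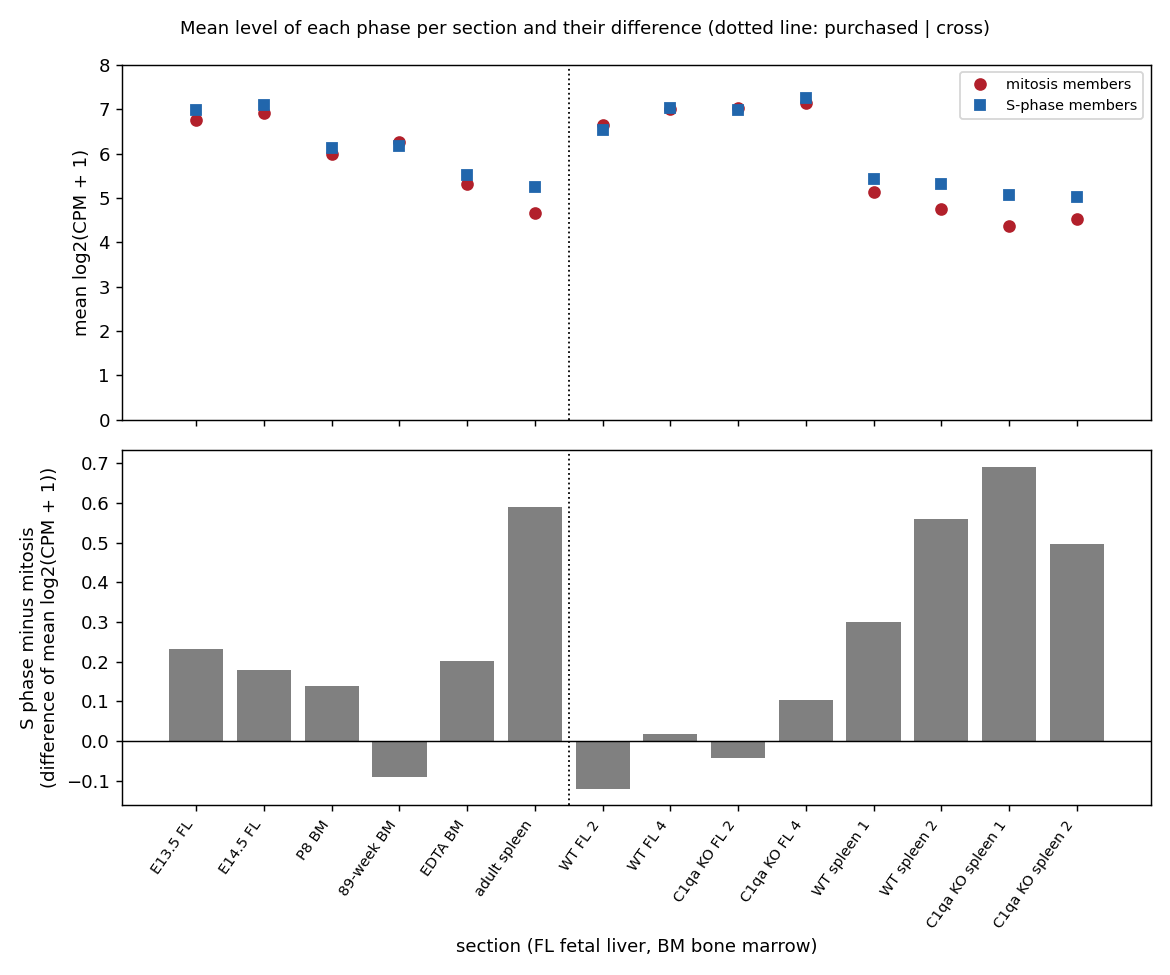
Mean log2(CPM + 1) of the mitosis and S-phase members in each section (upper panel) and the S-phase mean minus the mitosis mean (lower panel, bars from 0). Both phases are lower in spleen than in fetal liver, mitosis more so. The difference is 0.30 to 0.69 in the 5 spleens against -0.12 to 0.23 in the 6 fetal livers. Pcna, which adds to that gap in the cross, is among the S-phase members.

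Loss of C1qa in fetal liver moved no member past the test. Of 37 members 0 were called in either direction, where edgeR called 0% of all genes. At an unadjusted p under 0.05 there were 138 genes (0.727%), none of them a member, and DESeq2 called 12 genes and no member. The median log2 fold change, knockout over wild type, was 0.07 for mitosis and 0.14 for S phase. Errors were wide, from 0.40 to 0.91 on the log2 scale. C1qa itself, at -10.25 ± 1.35 (SE, adjusted p = 0.999821, edgeR), was not called by the same fit, so that the lack of calls does not show that the members were unaffected. The label numbers are litters, and Top2a had 171 and 217 CPM in the wild-type and knockout sections labelled 2 and 330 and 333 CPM in those labelled 4. Summed over members and all spots used, the knockout section was the higher in both litters. The mitosis sums were 3930 and 4785 CPM in litter 2 and 4123 and 4771 CPM in litter 4, wild type first. The S-phase sums were 2182 and 3007 CPM, then 3281 and 3849 CPM. Within liver spots the litter 4 sums were near each other, at 5119 and 5231 CPM for mitosis and 4310 and 4343 CPM for S phase. Those of litter 2 stayed apart, at 4030 and 4833 CPM and at 2229 and 3035 CPM. Between genotypes 7 of 20 mitosis and 3 of 17 S-phase members did not overlap, where 10.0% of all genes with at least 10 UMIs did not, and with the litter as a block edgeR called no member.

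In spleen 13 of 37 members passed the test, 2 higher and 11 lower in the knockout, where 20.6% of all genes were called, 13.8% higher and 6.79% lower. Of the mitosis members 8 of 20 were lower and 1 higher, with a median log2 fold change of -0.45, and of the S-phase members 3 of 17 were lower and 1 higher, with a median of -0.05, against -0.08 over all genes. Of the 20 mitosis members 15, and of the 17 S-phase members 11, had no overlap between the 2 wild-type and the 2 knockout spleens, where 69.8% of all genes with at least 10 UMIs had none, a share near that of the members. With upper-quartile factors 14 members were called, all lower, as the median of all genes moved to -0.37 and the share of called genes that were higher from 67.0% to 21.4% (86.2% with DESeq2, which called 10 members).

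Ube2c, the ubiquitin-conjugating enzyme of mitotic exit, had 31.6 and 29.3 CPM in the wild-type and 13.3 and 10.9 CPM in the knockout spleens, or -1.09 ± 0.19 on the log2 scale (SE, adjusted p = 0.000819, edgeR). Ccna2 had 136 and 117 CPM against 54.3 and 60.5 CPM (-0.88 ± 0.17, adjusted p = 0.00168). Mki67 fell by 0.95 ± 0.20 on the log2 scale (adjusted p = 0.00256). Birc5, survivin of the chromosomal passenger complex, and Nusap1, a spindle protein, fell by 0.81 ± 0.17 and 0.83 ± 0.18, and Cdk1, Prc1 and Ccnb2 were also called lower. These 8 genes serve mitotic entry, the spindle and exit alike.

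Replication genes did not move as one. Cdc6, the origin licensing factor, had 44.5 and 35.0 CPM in the wild-type and 18.6 and 21.1 CPM in the knockout spleens (-0.75 ± 0.19, SE, adjusted p = 0.00982, edgeR), and Mcm2 and Ccne1 fell by 0.64 ± 0.17 and 0.61 ± 0.18. Mcm6 went the other way, from 99.3 and 89.0 CPM to 116 and 115 CPM (0.55 ± 0.16, adjusted p = 0.0218). Top2a, with 31.2 and 19.4 CPM against 28.7 and 42.0 CPM, was called higher at 0.71 ± 0.23 (adjusted p = 0.0352) although its genotypes overlapped in CPM. Bub1, at 0.74, was not called. Neither Mcm6 nor Top2a was called with upper-quartile factors.

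Of the other replication genes 2 of 24 were higher and 2 lower in the knockout spleens, and of the other mitosis genes 1 of 24 was higher and 5 were lower. All 8 early erythroid genes were lower (median -1.67; summed 726 and 438 CPM in the wild-type against 149 and 155 CPM in the knockout sections), as were 6 of 8 late erythroid and all 7 late neutrophil genes, whereas 3 of 7 B cell genes and all 7 pancreas genes were higher. Klf1, an erythroid transcription factor, had 27.1 and 15.6 CPM against 10.1 and 6.57 CPM. The part of these cell types in the members' difference was not tested. The call rests on few sections: no member was called without knockout spleen 2, 6 without knockout spleen 1, 9 without wild-type spleen 1 and 13 without wild-type spleen 2, and 8 when all sections were thinned to the shallowest. Leaving out the pancreas spots gave 14. The test of whether the genotype effect differed between spleen and fetal liver called no member, nor any gene (0%). At an unadjusted p under 0.05 it had 1 member and 10.5% of all genes, and DESeq2 called no member, whereas edgeR with a term for the litter of the fetal livers called 1, lower.

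**Figure D3:**
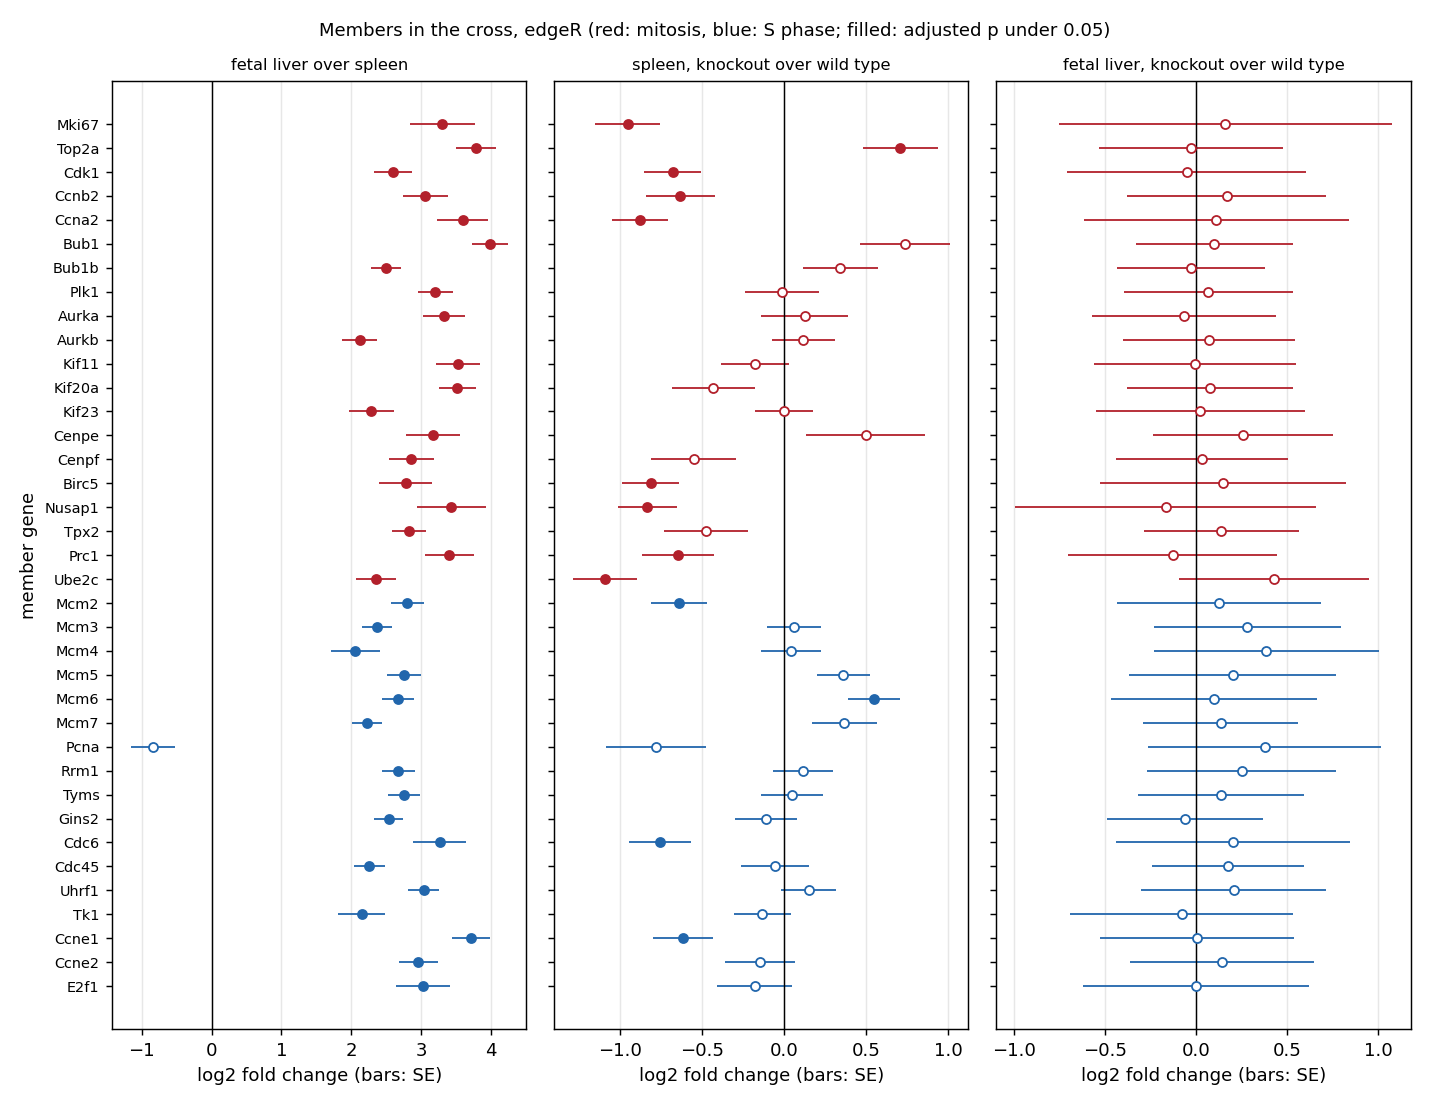
Log2 fold change of 37 members (points, with SE bars; filled where the adjusted p by edgeR was under 0.05) between cross fetal liver and spleen (left), knockout and wild-type spleen (middle) and knockout and wild-type fetal liver (right). All but Pcna are far to the right of 0 in the left panel, 11 filled points lie to the left of 0 and 2 to its right in the middle panel, and no point is filled in the right panel.

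To find where in the spleen the members were read, each cross spleen was split into spots at or above the 75th percentile of Cd79a, a subunit of the B cell receptor, and spots at or below its 25th percentile, with the section as a block. The mitosis members summed to 612, 641, 541 and 621 CPM in the Cd79a-high zones (wild type 1 and 2, knockout 1 and 2) and to 2639, 1413, 699 and 658 CPM in the Cd79a-low zones. The B cell zones were thus nearly equal in the 4 sections, and the sections differed in the zone poor in B cells. In the purchased adult spleen the sums were 718 and 1094 CPM. S-phase members summed to 684, 773, 764 and 783 CPM in the Cd79a-high and to 1244, 976, 694 and 643 CPM in the Cd79a-low zones of the cross.

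Over the 4 spleens 7 of 20 mitosis and 2 of 17 S-phase members were lower in the Cd79a-high zone and none was higher, where 5.64% of all genes were called and 3.21% were lower. The median differences were -1.001 for mitosis and -0.40 for S phase. Prc1, which bundles the spindle midzone, was lower by 1.37 ± 0.30 on the log2 scale (adjusted p = 0.0238, edgeR), Ube2c by 1.07 ± 0.24 and Nusap1 by 1.30 ± 0.30, and Kif20a and Kif23 had -1.17 ± 0.28 and -0.81 ± 0.19, with Mki67 and Birc5 also called. Of the S-phase members both cyclins E were lower, Ccne2 at -0.77 ± 0.18 and Ccne1 at -1.01 ± 0.25. No member was called without wild-type spleen 2, 4 were called without knockout spleen 1, 12 without knockout spleen 2, and 4 with upper-quartile factors. Of the early erythroid genes 5 of 8, and of the late erythroid genes all 8, were lower in the same zone.

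The 2 genotypes differed in this zone effect, in a test added after the values were seen. Of the mitosis members 3 and of the S-phase members 3 had a log2 zone difference, high minus low, that was below 0 in the wild type and nearer to 0 or above it in the knockout, where 0.763% of all genes were called and 0.456% were in that direction. Ccna2 had 54.6 CPM in the high and 279 CPM in the low zone of wild-type spleen 1 and 57.5 and 161 CPM in wild-type spleen 2, but 50.1 and 60.9 CPM in knockout spleen 1 and 60.4 and 57.1 CPM in knockout spleen 2. The difference of its zone effects was 1.91 ± 0.30 (SE, adjusted p = 0.0137, edgeR). The low zone of the knockout spleens also held pancreas, whose genes summed to 8559 and 62688 CPM there against 63.4 and 754 CPM in the wild-type spleens, and without pancreas spots 13 members were called. The count moved widely when 1 section was left out, which leaves 1 section in a genotype. Shares of all genes called in these other fits are not given here, so their counts cannot be read as particular to the members.

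Spots with Klf1 gave the erythroid side. Klf1 was sparse in spleen, so that Klf1-high spots were those from the 75th percentile up in wild-type spleen 1 and all spots with a Klf1 UMI in the others, 357, 66, 102 and 108 spots in the 4 cross spleens, and Klf1-low spots had no Klf1 UMI. Median depth in the high and low spots was 13641 and 13638 UMIs in wild-type spleen 1 and 14485.5 and 11999 UMIs in knockout spleen 2. In wild-type spleen 2 and knockout spleen 1 the Klf1-high spots were also deeper on average. Mitosis members summed to 1631, 1557, 665 and 756 CPM in the Klf1-high spots and to 1223, 986, 607 and 661 CPM in the Klf1-low spots. Of the mitosis members 7 of 20 and of the S-phase members 1 of 17 (Mcm2) were higher in Klf1-high spots, where 1.53% of all genes were called and 1.24% were higher. Mki67 rose by 0.51 ± 0.06 (SE, adjusted p = 2.27e-14, edgeR), Nusap1 by 0.42 ± 0.08, Cdk1 by 0.31 ± 0.06, Ccna2 by 0.36 ± 0.07, Prc1 by 0.42 ± 0.11 and Mcm2 by 0.27 ± 0.08. Only 1 member was called without wild-type spleen 1, 1 with DESeq2, none with zones set by the early erythroid list, and none after each spot was thinned to 2000 UMIs, when Nusap1, Cdk1 and Ccna2 changed sign (-0.18, -0.11 and -0.17).

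The contrast was sharper between Klf1-high and Cd79a-high spots, leaving out spots that were both. Of the mitosis members 13 of 20 and of the S-phase members 3 of 17 were higher on the Klf1 side, where 7.33% of all genes were called and 4.94% were higher, with medians of 0.94 and 0.27. Mki67 had 573 and 132 CPM in wild-type spleen 1, 471 and 141 CPM in wild-type spleen 2, 175 and 103 CPM in knockout spleen 1 and 193 and 120 CPM in knockout spleen 2, a gain on the log2 scale of 1.41 ± 0.18 (SE, adjusted p = 4.47e-06, edgeR). Prc1, Nusap1, Birc5 and Ccna2 followed at 1.38, 1.31, 1.00 and 1.12. Of the S-phase members Cdc6, Ccne1 and Mcm2 were called at 0.98, 0.81 and 0.57, and no Mcm gene other than Mcm2 was. Of the other mitosis genes 12 of 24 were higher, of the other replication genes none of 23, and all 8 early erythroid, all 6 late neutrophil and 5 of 6 T cell genes were higher as well. Klf1 is among the 8 early erythroid genes, and its call was fixed by the choice of spots. The count of members was 3 without wild-type spleen 1, 9 without wild-type spleen 2, 7 with DESeq2 and 2 after thinning.

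**Figure D4:**
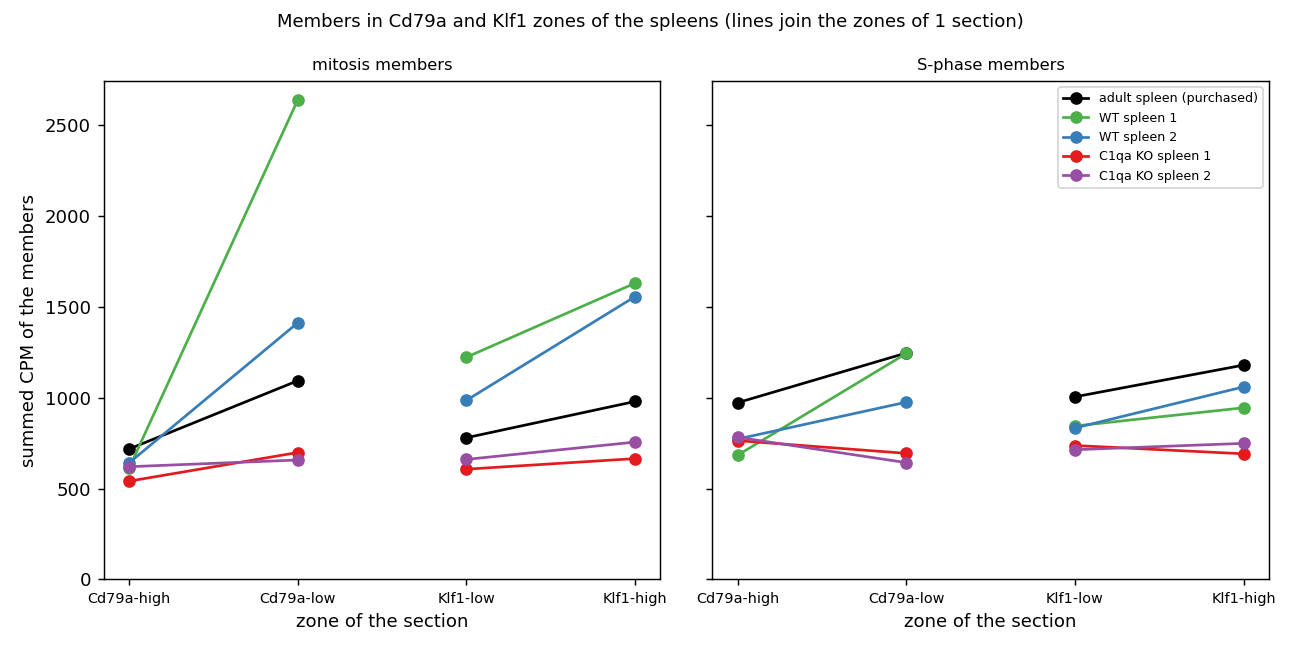
Summed CPM of the mitosis (left) and S-phase members (right) in the Cd79a-high, Cd79a-low, Klf1-low and Klf1-high zones of the 5 spleens, with lines joining the zones of 1 section. The Cd79a-high values of the mitosis members lie between 541 and 718 CPM in all 5 spleens, and the Cd79a-low value of wild-type spleen 1, 2639 CPM, stands above the rest.

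**Figure D5:**
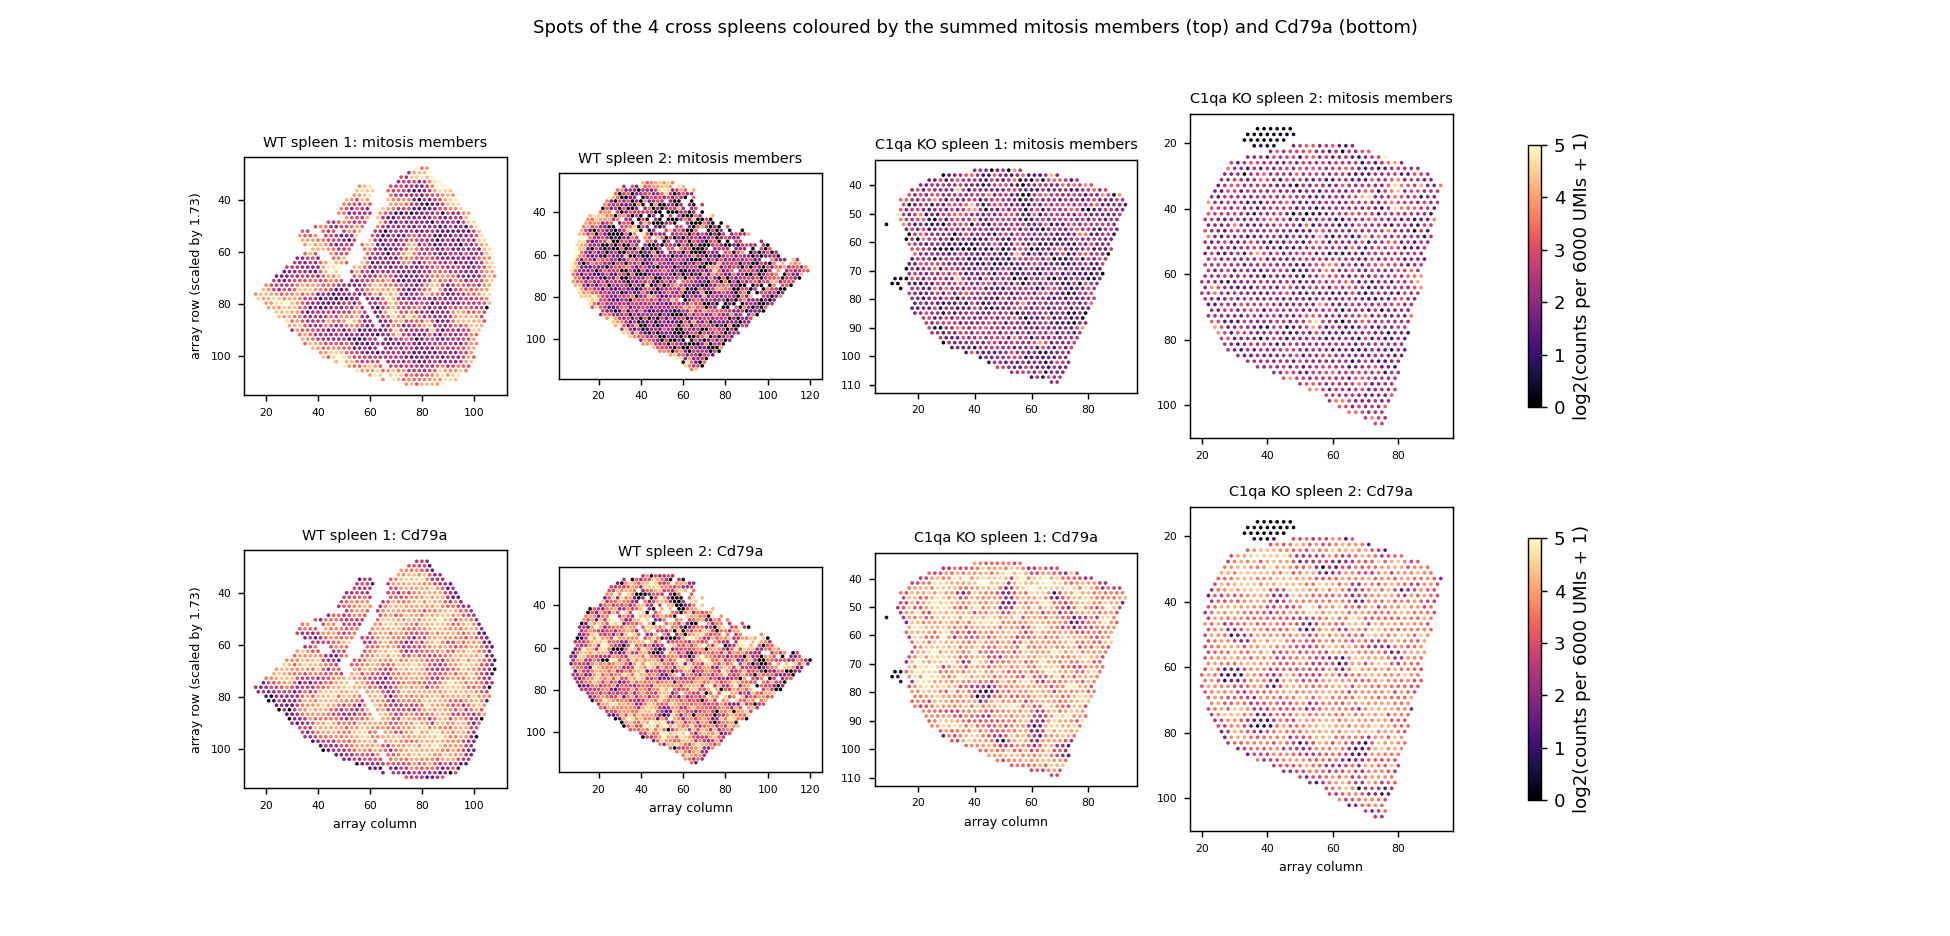
Spots of the 4 cross spleens at their array row and column, coloured by the log2 of summed mitosis-member counts per 6000 UMIs plus 1 (upper row) and of Cd79a (lower row). Bright mitosis spots lie along the edge and in inner patches of wild-type spleen 1, where Cd79a is darker, and along one edge of wild-type spleen 2, while the knockout spleens are nearly even but for a few small bright foci in knockout spleen 2.

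Spot by spot, the same was read from the correlation of summed member levels, log2(counts per 6000 UMIs + 1), with Klf1 and Cd79a. These values describe each section, since spots of 1 section share a library and differ in depth. In spleen the mitosis members had Pearson's r with Cd79a of -0.73 and -0.14 in wild-type 1 and 2 (1426 and 1646 spots), -0.06 and 0.10 in knockout 1 and 2 (1291 and 1371 spots) and -0.19 in the purchased adult spleen (1012 spots). Without pancreas spots the knockout values were -0.11 and -0.12, below 0 as in the wild type. Wild-type spleen 1 stood apart in the size of r, and Mki67 alone had -0.68 there. It also had the deepest spots of the cross spleens, with a median of 13937.5 UMIs. The median was 2293.5 in wild-type 2 and 7846 and 12139 in knockout 1 and 2, and the part of depth was not tested. Taken singly, 0 of 20 mitosis members had a positive r in wild-type 1 and 1 of 16 in wild-type 2. In knockout 1 and 2 it was 3 of 19 and 11 of 20, and 4 of 22 in the purchased spleen. The shares of all genes were 69.5%, 54.9%, 62.3%, 78.8% and 67.3%. For S phase 1 of 17, 4 of 16, 12 of 17, 14 of 17 and 4 of 17 were positive. The S-phase sum had -0.44 in wild-type spleen 1 and -0.07 in wild-type 2. It had 0.11 and 0.23 in the knockouts (0.041 and -0.0028 without pancreas spots) and -0.09 in the purchased spleen.

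With Klf1 the mitosis members had an r of only 0.18, 0.06, 0.03 and 0.06 in the 4 cross spleens, whose Klf1 was read in 438, 66, 102 and 108 spots. The summed early erythroid genes, read in more spots, had 0.82, 0.38, 0.13 and 0.19 with mitosis and 0.54, 0.19, 0.01 and 0.05 with S phase. Mitosis was thus nearer than S phase to early erythroid genes in each of the 4, but not in the purchased adult spleen, which had 0.34 with mitosis and 0.36 with S phase. In knockout spleen 2 the germinal centre B cell genes had an r of 0.27 with mitosis and 0.24 with S phase, and all 20 mitosis and 17 S-phase members were positive there, against 67.4% of all genes. In wild-type 1, wild-type 2 and knockout 1, the positive mitosis members were 2 of 20, 7 of 16 and 15 of 19. Positive S-phase members were 3 of 17, 8 of 16 and 13 of 17 there, against 66.7%, 56.4% and 61.9% of all genes. Knockout 1 was thus above its share in both phases, and both wild types were below theirs. All values in this paragraph include pancreas spots, whose genes took 1.84% of UMIs in knockout spleen 2. None is given without those spots. The purchased adult spleen had 17 of 22 mitosis and 10 of 17 S-phase members positive, against 64.0% of all genes.

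In bone marrow and fetal liver the correlations differed between sections of like tissue. P8 bone marrow had an r of 0.60 between mitosis and Klf1 and 0.57 between mitosis and Cd79a over 1085 spots, and 0.50 and 0.30 within its 274 marrow spots. At 89 weeks, where 929 of 932 spots were marrow, the values over all spots were 0.09 and -0.06. The cross fetal livers labelled 4 had 0.66 and 0.52 between mitosis and Klf1, and those labelled 2 had 0.13 and 0.07. Within liver spots these were 0.49 and 0.18 in the sections labelled 4 and 0.06 and 0.03 in those labelled 2. The purchased livers had 0.29 at E13.5 and 0.03 at E14.5, every spot being a liver spot. Cd79a was nearly absent from fetal liver, with r between -0.07 and 0.05 for mitosis in all 6.

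In fetal liver the zones said less. Klf1-high against Klf1-low liver spots gave sums of 4072 and 4015 CPM for mitosis members in wild-type liver 2, 5403 and 4662 CPM in wild-type liver 4, 4840 and 4808 CPM in knockout liver 2 and 5351 and 5060 CPM in knockout liver 4. The high zone was above the low zone in all 4. None of the 36 members tested was called by edgeR, where 0% of all genes were. At an unadjusted p under 0.05 there were 7 members and 9.18% of all genes. DESeq2 called no member, and 35 of 36 differences were above 0 with a median of 0.14. With zones set by the early erythroid list 4 members were called, and the share of all genes called in that fit is not given here. The test of the Klf1 zone effect in spleen against fetal liver called no member, where 0.0640% of all genes were called, with 2 members and 7.56% of all genes at an unadjusted p under 0.05. DESeq2 called no member there, and edgeR called 2 without wild-type fetal liver 4.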

How the data were processed

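Per the labels and the methods of the study, libraries were made with a probe-based Visium kit for fixed tissue, and the authors deposited raw UMI counts per spot and gene from Space Ranger (mm10). The matrices of the cross and of the purchased tissue differ in software version and in the genes listed, so both sets were analysed apart. Spots under tissue that showed 1000 genes or more entered the analysis. Counts were summed per section, or per section and zone, and fitted with edgeR 4.0.16 (TMM, filterByExpr, glmQLFit and glmQLFTest) in R 4.3.3, with Benjamini-Hochberg adjustment over all genes and a threshold of 0.05. DESeq2 1.42.0 was an alternative. Tests on whole sections had genotype and tissue as terms, and zone tests had the section as a block. The section is the unit of replication. Each p-value rests on the spread between these sections after edgeR has moderated it with the spread of all genes. In the Klf1 zone fit of the 4 spleens the common dispersion over all genes was 0.00115. A very small p-value there does not come from the spread of that member's own 4 differences alone. Single purchased sections were compared by 2-fold with at least 10 UMIs in one of them, with 95% counting intervals. Spots were thinned to 2000 UMIs in one alternative.

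The members and gene lists were chosen with earlier results of these data known. Values are given in every section for Mki67, Top2a, Ccnb1, Mcm2, Mcm5, Pcna, Rrm2 and E2f1. Per test and phase, up to 5 called members with the smallest adjusted p are named, and per pair of single sections up to 3 with the largest ratio, with those that went against most of their phase. Fetal liver numbers 2 and 4 mark litters per the study's methods, and deviations from the group means correlated at 0.652 between same-numbered sections (0.0394 in spleen, where the numbers are not stated to pair). Some of the fits were also run on simulated counts. Their dispersion (the spread between sections) was set below that of the fetal liver genotype fit (0.263) and of the tissue fit (0.146). The simulation therefore cannot show how those 2 fits behave.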

Additional observations from a re-analysis of the deposited data

Results flagged for a closer look

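In 7 cases a zone effect within the spleen differed between the genotypes in an edgeR interaction test with adjusted p under 0.05 over all genes. For 6 members the log2 difference between Cd79a-high and Cd79a-low zones, below 0 in the wild type, was nearer to 0 or above it in the knockout. The signed difference, knockout minus wild type, was 1.91 ± 0.30 (SE) for Ccna2, 1.63 ± 0.31 for Prc1, 1.67 ± 0.35 for Mki67, 1.96 ± 0.35 for Cdc6, 1.12 ± 0.22 for Mcm2 and 1.56 ± 0.24 for Uhrf1. Mki67 had 134.9 CPM in the Cd79a-high and 832 CPM in the Cd79a-low zone of wild-type spleen 1 and 137 and 380 CPM in wild-type spleen 2, against 103 and 153 CPM in knockout spleen 1 and 124 and 145.03 CPM in knockout spleen 2. Uhrf1 changed side, with 32.6 and 80.1 CPM, then 35.1 and 65.8 CPM in the wild type, and 54.1 and 44.1 CPM, then 52.1 and 36.5 CPM in the knockout. Cdc6 had 21.8 and 87.0 CPM, then 20.5 and 53.4 CPM in the wild type, and 22.6 and 14.0 CPM, then 19.2 and 22.3 CPM in the knockout. The summed early erythroid genes of the Cd79a-low zone were at 1603 and 697 CPM in the wild-type and 186 and 160 CPM in the knockout sections, and the late neutrophil genes at 1441 and 846 CPM against 58.4 and 111 CPM, and their part in the difference was not tested.

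For Cdk1 the Klf1-high against Klf1-low difference was smaller in the knockout, by -0.53 ± 0.12 (SE, adjusted p = 0.00466, edgeR). It was the only one of 37 members called in that test, where 0.260% of all genes were, and none was called by DESeq2, after thinning, with zones cut at the median, or without wild-type spleen 1, knockout spleen 1 or knockout spleen 2.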

How the results depend on the processing

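The difference between fetal liver and spleen kept its direction and its call for every named member under each alternative run (170 of 170 values). Over all tests, 450 of 564 values of named members kept both, 111 kept the direction and lost the call, and 3 changed sign. These were Nusap1, Cdk1 and Ccna2 in Klf1-high spleen spots thinned to 2000 UMIs (-0.18, -0.11 and -0.17). Of 37 members, the genotype effect in spleen gave 8 calls after thinning and 0 to 13 without one section. Its difference from fetal liver gave 1 call with the replicate block by litter. Klf1-high against Klf1-low spots gave 4 calls in fetal liver with zones set by the marker list. In spleen it gave 1 with DESeq2, 5 at the median, 0 thinned, 0 with the marker list and 1 to 7 without one section. Cd79a zones gave 4 with upper-quartile factors and 0 to 12 without one section. Klf1-high against Cd79a-high spots gave 7 with DESeq2, 2 thinned and 3 to 15 without one section. The difference of the Klf1 effect between tissues gave 0 to 2 without one section. Counts of calls in this section are given without the share of all genes called in the same fit. They do not show whether the members moved more than other genes.

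The tests of zone effects between genotypes, added after the data were seen, gave 2 calls for Cd79a with DESeq2, 12 at the median, 13 with the marker list, 13 without pancreas spots and 2 to 30 without one section. For Klf1 they gave 0 with DESeq2, at the median and thinned, 22 with the marker list and 0 to 1 without one section. Within region spots 6 members passed 2-fold between P8 and 89 weeks and 1 between E14.5 liver and P8, which gave 34 with TMM-scaled CPM. The phase balance changed sign as a log2 ratio of sums in E13.5 and E14.5 liver, P8 and EDTA marrow, wild-type spleens 1 and 2 (-0.25, -0.37, -0.42, -1.68, -0.61 and -0.26) and wild-type and knockout fetal liver 4 (-0.33 and -0.31), and in EDTA marrow over all in-tissue spots (-0.25). Of spot correlations with Klf1 or Cd79a of 0.2 or more in size, those that changed sign were S phase with Cd79a in knockout spleen 2 (-0.023 against adjacent spots, -0.0028 without pancreas spots), S phase with Klf1 in wild-type fetal liver 4 (-0.00106 against adjacent spots) and mitosis with Cd79a in EDTA marrow (0.29 against adjacent spots). Smaller ones changed sign too, among them mitosis with Cd79a in knockout spleen 2 (0.10, and -0.12 without pancreas spots). The cause of these changes was not tested.

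The fetal livers are paired by litter, and the block changed no other call among members: 0 members in fetal liver by genotype and 36 between tissues. In spleen, where the numbers are not known to pair, blocking by number gave 15 calls against 13. Depth limits the EDTA marrow, with 15 spots, and Pcna, with few UMIs everywhere.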
